A study of Mus musculus with 6 samples.

Results

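The genes described here were 10 genes of fibroblast growth factor (FGF) receptor signalling, taken by name from the 41388 genes counted in each library. They were the receptors *Fgfr1*, *Fgfr2* and *Fgfr3*, the ligand *Fgf18*, the feedback inhibitors *Dusp6*, *Spry2*, *Spry4* and *Spred1*, the transcription factor *Etv5*, and *Phlda1*. *Phlda1* was included because the genotypes did not overlap in these libraries, so its genotype difference was used to choose it and is given as a description without a test. The rule used no measured value for the other 9. Of the 10, 9 were among the 14533 genes that passed the filter on low counts, which kept genes above 1 CPM, the count scaled to the library's total, in at least 2 libraries, and *Fgf18* did not pass.

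The libraries came from primary chondrocytes of the cartilage of the femoral head of male mice aged 21 days, collected after 2 days of culture. The *Postn*-/- group held 3 mice homozygous for the *Postn* tm1Jmol/J allele, a null allele of the matricellular protein periostin, on the B6129SF2/J background. The wild-type (*wt*) group held 3 mice of the same age and sex, littermates bred from heterozygous parents. The comparison asks which transcripts differed at baseline between the genotypes. The allele is constitutive, so every cell type of the mouse carried it, and the measurement was made on plated cells and not on cartilage.

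An FGF ligand bound to a receptor tyrosine kinase (*Fgfr1* to *Fgfr4*) starts a cascade from adaptor proteins through RAS and MEK to the kinase ERK, and ERK switches on genes that include its own inhibitors. Transcripts of *Dusp6*, the Sprouty genes and *Etv5* are therefore widely read as a record of recent ERK activity in a cell. In growth cartilage, *Fgfr3* is the receptor of proliferating and prehypertrophic chondrocytes and restrains their growth, activating mutations in it cause achondroplasia, and *Fgf18* is one of its main ligands.

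Promoter sequences are shown for *Dusp6*, *Spry2* and *Spred1* because these feedback inhibitors had the same 3 highest libraries, as described below. Each window holds the 250 bases before the annotated start, from RefSeq on GRCm38.p6, written 5′ to 3′ on the strand of the gene. Capitals mark GGAA, the core bound by ETS factors such as ETV5, or its reverse complement TTCC. The *Dusp6* window lies at chr10:99262981-99263230 on the plus strand, the *Spry2* window at chr14:105896820-105897069 on the minus strand, and the *Spred1* window at chr2:117120821-117121070 on the plus strand. None of the 3 windows holds an annotated exon.
Dusp6: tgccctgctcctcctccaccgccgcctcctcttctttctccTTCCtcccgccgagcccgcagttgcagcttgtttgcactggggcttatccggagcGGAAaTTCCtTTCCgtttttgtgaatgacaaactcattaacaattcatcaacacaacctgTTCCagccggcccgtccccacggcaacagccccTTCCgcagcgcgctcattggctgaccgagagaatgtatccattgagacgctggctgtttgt
Spry2: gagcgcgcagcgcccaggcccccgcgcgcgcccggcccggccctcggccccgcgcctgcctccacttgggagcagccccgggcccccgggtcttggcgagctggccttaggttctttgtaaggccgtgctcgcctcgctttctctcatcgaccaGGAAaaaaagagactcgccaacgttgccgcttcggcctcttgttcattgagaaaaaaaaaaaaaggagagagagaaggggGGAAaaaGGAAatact
Spred1: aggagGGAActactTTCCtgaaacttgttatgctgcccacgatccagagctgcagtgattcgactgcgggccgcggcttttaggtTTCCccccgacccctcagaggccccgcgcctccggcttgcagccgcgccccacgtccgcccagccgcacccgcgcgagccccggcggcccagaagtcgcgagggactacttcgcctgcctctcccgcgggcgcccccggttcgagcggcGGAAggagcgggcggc

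The *Dusp6* window held 6 matches to GGAA on either strand, the *Spred1* window 4 and the *Spry2* window 3. These numbers are set against a median of 3 matches in the 32851 promoter windows of the table, of which 93.4% held at least 1 match, so the short core was common everywhere. The table matched 7 of the 10 genes with 9 windows. None of the 9 held the longer ETS match CCGGAA (present in 12.0% of all windows), the AP-1 match TGANTCA (6.75%), the CRE match TGACGTCA (1.55%) or a CArG box (1.47%), each searched on both strands. The CCGGAA and GGAA matches overlap by construction. *Phlda1*, *Fgfr1* and *Spry4* had no entry.

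Total counts ran from 20587640 to 26572260 per library, and 3 counts were worth 0.113 to 0.146 CPM. Values below are normalized CPM, that is CPM after scaling of the library totals by the trimmed mean of M values (TMM), and gene positions are those of GENCODE M21 on GRCm38. A count sums the reads over all exons of a gene, UTRs included. *Postn* itself had 4.66, 4.27 and 5.67 normalized CPM in the *Postn*-/- libraries against 10.1, 10.3 and 6.90 in the *wt* libraries, so the genotypes did not overlap but reads of the targeted gene remained in *Postn*-/-. The allele replaces a block of internal exons with a neomycin cassette, while the count covers the exons outside that block as well. As a check of the cell type, the 12 chondrocyte markers summed to 30053 to 47322 normalized CPM, against 323 to 478 for 6 macrophage and osteoclast markers, 6.84 to 11.7 for 5 endothelial markers and 0.080 to 0.524 for 5 erythroid markers, of which *Hba-a2* was at 0 in every library. Fibroblast and perichondrial markers, 8 genes, summed to 2553 to 5379. One library stood apart from the rest: *wt* 1 was at 47.7 on the first principal component of all tested genes, and the other 5 lay between -17.4 and -0.018. It also had the lowest chondrocyte marker sum (30053) and the highest sum of 10 proliferation markers (738, against 207 to 523 in the others). Several log2 fold changes that rest on it are given without it as well. The SDs within genotypes are given only with all 6 libraries.

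Compared per length of exon, the 10 genes covered a wide range of levels. *Fgfr3* led by far, at a mean of 115 normalized CPM per kilobase over the 6 libraries (80.9 to 145). *Fgfr2* followed at 14.5 per kilobase (9.76 to 25.9) and *Spry2* at 12.7 (4.97 to 20.7). *Phlda1*, a PHLDA-family protein with a pleckstrin homology-like domain, was at 6.31 (4.59 to 7.97), *Fgfr1* at 5.44 (4.13 to 6.55) and *Dusp6* at 4.71 (1.31 to 9.82). The lower end held *Spred1* at 2.42 (2.01 to 2.80), *Etv5* at 1.76 (0.706 to 3.11), *Spry4* at 1.01 (0.534 to 1.41) and *Fgf18* at 0.369 (0.267 to 0.445). Neighbours in this order overlapped in range except at both ends: every *Fgfr3* value lay above every *Fgfr2* value, and every *Spry4* value above every *Fgf18* value. Without *Postn*-/- 1 or without *wt* 1, *Fgfr2* and *Spry2* changed places.

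**Figure D1:**
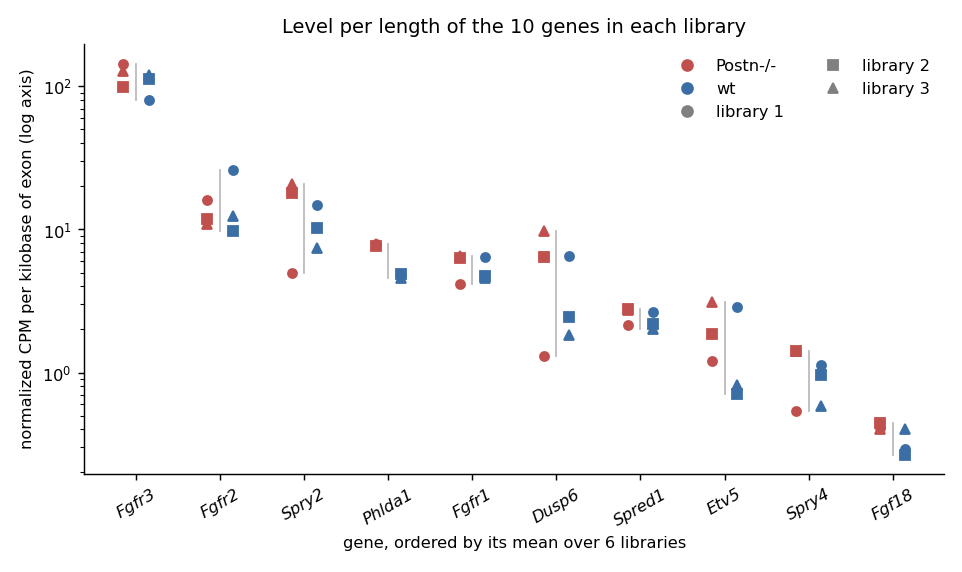
Level of each of the 10 genes per length, in normalized CPM per kilobase of exon on a log axis, with 1 point for each of the 6 libraries (red *Postn*-/-, blue *wt*, shape for library number) and a grey line over the range. *Fgfr3* stands above all others (80.9 to 145), *Fgf18* below all others (0.267 to 0.445), and the 8 genes between them overlap with a neighbour.

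Among the ligands, *Fgf18* (chr11:33117430-33147400, minus strand), a growth factor of cartilage and bone, was close to the limit of detection. Its reads numbered 12, 13 and 10 in the *Postn*-/- libraries and 9, 7 and 10 in the *wt* libraries, or 0.477 to 0.529 and 0.317 to 0.479 normalized CPM. The genotypes overlapped at that depth, and the gene was not among the tested genes. A count of 7 to 13 reads leaves a counting error of 29.3% of the mean in *Postn*-/- and 34.0% in *wt*, so a difference of the size seen (a ratio of means of 1.30) was not detectable.

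The other 21 FGF genes give the frame for *Fgf18*. It had rank 5 of the 22 FGF genes per length, 14 of the other 21 were below the same filter, and *Fgf8* had 0 reads in all 6 libraries. The most abundant ligand was *Fgf21*, an endocrine FGF of the stress response, at a mean of 21.2 normalized CPM per kilobase. *Fgf21* had 13.0, 10.2 and 15.2 normalized CPM in the *Postn*-/- libraries against 49.4, 18.1 and 12.4 in the *wt* libraries. The fold change of *Fgf21*, as log2 of *Postn*-/- over *wt*, came to -1.06 (standard error 0.47, adjusted p = 0.717 and unadjusted p = 0.0542, edgeR with Benjamini-Hochberg). With 1 library left out it ran from -0.26 without *wt* 1, the highest library, to -1.40 without *wt* 3. *Fgf7*, a ligand of mesenchymal origin, came next at 6.67 per kilobase. Of the 7 tested FGF genes other than *Fgf18*, among them *Fgf12* and *Fgf13*, which act inside the cell and are not receptor ligands, 0 passed an unadjusted p of 0.05 when edgeR used all 6 libraries and the filter (6.3% of all tested genes passed). Under the alternatives *Fgf21* passed that threshold in 5 of 14 (edgeR with no filter, without *wt* 2 and without *wt* 3, DESeq2's Wald test, and limma with 2 surrogate variables), and *Fgf2* and *Fgf13* in 1 each.

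The receptors were measured with many reads, and their genotypes overlapped. *Fgfr3* (chr5:33721674-33737068, plus strand) had 999, 689 and 889 normalized CPM in the *Postn*-/- libraries against 559, 785 and 831 in the *wt* libraries. The lowest value belonged to *wt* 1 and the highest to *Postn*-/- 1, with *Postn*-/- 2 between *wt* 1 and *wt* 2. The quasi-likelihood F test of edgeR, with p values adjusted by the method of Benjamini and Hochberg over all tested genes, gave *Fgfr3* a log2 fold change of 0.24 (95% interval -0.21 to 0.70, adjusted p = 0.765). Without *wt* 1, its lowest library, the value was 0.09, and over each library left out in turn it ran up to 0.38.

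*Fgfr2* (chr7:130162451-133123350, minus strand), the receptor of osteoblasts and perichondrium, had 116, 85.7 and 79.6 normalized CPM in the *Postn*-/- libraries against 188, 70.7 and 89.8 in the *wt* libraries. That annotated span also covers or touches 69 other genes, and the RefSeq promoter window of *Fgfr2* lies inside it, at chr7:130266809-130267058. The library *wt* 1 was high alone, and the 5 others lay between 70.7 and 116. The log2 fold change of *Fgfr2* came to -0.31 (95% interval -1.10 to 0.48, adjusted p = 0.825 from the same edgeR fit). Its sign rested on that library, since without *wt* 1 the value was 0.22.

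*Fgfr1* (chr8:25513654-25575718, plus strand), the receptor of hypertrophic chondrocytes and of most mesenchymal cells, had 33.6, 51.5 and 53.2 normalized CPM in the *Postn*-/- libraries against 51.8, 38.3 and 36.9 in the *wt* libraries. Here *Postn*-/- 2, *Postn*-/- 3 and *wt* 1 were high and close to each other, and the 3 remaining libraries were low. The fitted difference of *Fgfr1* on the log2 scale was 0.12 (95% interval -0.36 to 0.60, adjusted p = 0.890 from the same edgeR fit), and it ran from 0.00 to 0.30 with 1 library left out at a time. Of the exon bases of *Fgfr2*, 314 were shared with *Ctbp2*, of *Fgfr3*, 998 (13.9%) with the antisense gene G630022F23Rik, and of *Fgfr1*, 164 with the antisense gene Gm16159, which had 4 reads in all 6 libraries together. G630022F23Rik was not among the counted genes.

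Read as shares of the 4 signalling receptors per length, *Fgfr3* made up 70.3% to 87.1% of the *Fgfr1* to *Fgfr4* level. The lowest share, 70.3%, was again *wt* 1, where *Fgfr2* reached 22.5%, and in the other 5 libraries *Fgfr3* held 82.4% to 87.1%. *Fgfr1* contributed 2.49% to 5.54% and *Fgfr4*, a receptor best known from liver, 0.921% to 2.56%. As a mean the *Fgfr3* share was 85.5% ± 2.64 for *Postn*-/- mice and 81.2% ± 9.49 for *wt* mice (SD, n = 3), which overlapped. The low chondrocyte and high proliferation marker sums of *wt* 1 went with its *Fgfr3* and *Fgfr2* values, and their part in those values was not tested. In such bulk samples fewer cells of a type and less RNA per cell cannot be told apart.

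The decoy receptor *Fgfrl1*, which binds FGFs but lacks a kinase domain, stood at 17.6 normalized CPM per kilobase, above *Fgfr2*. It had 48.6, 58.2 and 52.6 normalized CPM in the *Postn*-/- libraries against 30.1, 52.3 and 38.8 in the *wt* libraries. The groups overlapped, since *wt* 2 at 52.3 lay above *Postn*-/- 1 at 48.6, and edgeR gave a log2 fold change of 0.40 (standard error 0.20, adjusted p = 0.717 and unadjusted p = 0.0771). That value was 0.22 without *wt* 1 and 0.63 without *wt* 2, its lowest and highest *wt* libraries.

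**Figure D2:**
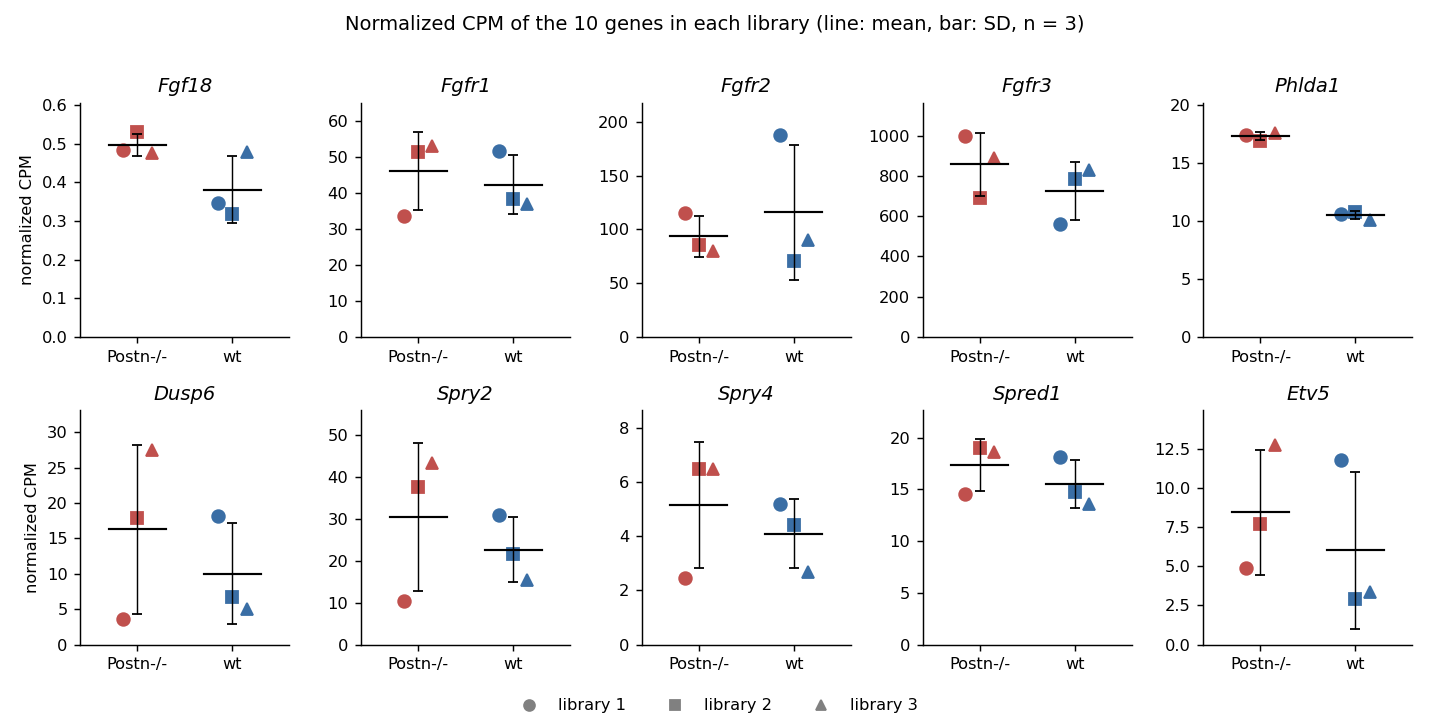
Normalized CPM of each of the 10 genes in each library, with the *Postn*-/- libraries in red and the *wt* libraries in blue, the mean as a line and the SD as a bar (n = 3). Only the *Phlda1* panel, the gene chosen for it, shows separate groups (16.9 to 17.6 against 10.1 to 10.8), and in *Dusp6*, *Spry2*, *Spry4* and *Fgfr1* the lowest point of all is library 1 of *Postn*-/-.

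*Dusp6*, *Spry2*, *Spry4* and *Etv5* varied widely between mice of 1 genotype, *Spred1* did not, and for all 5 the SD of log2 CPM within genotypes was larger than the fitted log2 fold change. *Dusp6* (chr10:99263231-99267489, plus strand), the cytoplasmic phosphatase that removes the activating phosphates of ERK, had 3.66, 17.8 and 27.4 normalized CPM in the *Postn*-/- libraries against 18.1, 6.79 and 5.08 in the *wt* libraries. The range over all libraries was 7.51-fold, both its ends were *Postn*-/- libraries, and the *wt* values fell between them. edgeR put the log2 fold change of *Dusp6* at 0.69 (95% interval -0.92 to 2.31, adjusted p = 0.813, Benjamini-Hochberg). With 1 library left out at a time the value ran from 0.09 to 1.45, past the threshold in none of these fits.

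*Spry2* (chr14:105891947-105896819, minus strand), an adaptor-binding inhibitor that acts upstream of ERK, had 10.4, 37.6 and 43.2 normalized CPM in the *Postn*-/- libraries against 30.8, 21.5 and 15.4 in the *wt* libraries. The same 3 libraries were highest as for *Dusp6*, with *Postn*-/- 1 lowest and a 4.17-fold range. For *Spry2* the fitted difference was 0.43 on the log2 scale (95% interval -0.69 to 1.54, adjusted p = 0.829 from the same edgeR fit). Without *Postn*-/- 1, it was 0.84 with adjusted p = 0.774 and unadjusted p = 0.0192 in edgeR. Without *Postn*-/- 3 it was 0.08, the lowest with 1 library left out. Over all alternatives the adjusted p of *Spry2* ran from 0.658 to 0.992.

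*Spry4* (chr18:38586247-38601415, minus strand), another Sprouty inhibitor, was measured at a lower level, with 2.45, 6.47 and 6.48 normalized CPM in the *Postn*-/- libraries against 5.19, 4.39 and 2.68 in the *wt* libraries. These values again put *Postn*-/- 2, *Postn*-/- 3 and *wt* 1 on top and *Postn*-/- 1 at the bottom. This gave a log2 fold change of 0.32 (95% interval -0.62 to 1.26, adjusted p = 0.844 from the same edgeR fit), and of 0.10 to 0.66 with 1 library left out. Counts of 56 to 159 reads gave it a counting error of 9.18% of the mean in *Postn*-/- and 10.2% in *wt*, smaller than its coefficients of variation of 45.2% and 31.3%.

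*Spred1* (chr2:117121374-117182279, plus strand), a Sprouty-related inhibitor that brings neurofibromin to RAS, was the steadiest of the inhibitors. It had 14.5, 19.0 and 18.6 normalized CPM in the *Postn*-/- libraries against 18.1, 14.8 and 13.6 in the *wt* libraries, a range of 1.396-fold. The 3 highest libraries were the same as for *Dusp6*, though by a small margin, and the lowest was *wt* 3. Its log2 fold change came to 0.16 (95% interval -0.23 to 0.55, adjusted p = 0.815 from the same edgeR fit), with a range of 0.08 to 0.29 when 1 library was left out.

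*Etv5* (chr16:22381309-22439719, minus strand), an ETS factor of the PEA3 subfamily and a transcriptional target of FGF signalling, had 4.90, 7.69 and 12.8 normalized CPM in the *Postn*-/- libraries against 11.8, 2.90 and 3.35 in the *wt* libraries. *Postn*-/- 3 and *wt* 1 were the highest and *wt* 2 and *wt* 3 the lowest, a 4.41-fold range. As a log2 fold change this was 0.48 (95% interval -0.84 to 1.80, adjusted p = 0.836 from the same edgeR fit). Without *wt* 1 every *Postn*-/- library lay above both remaining *wt* libraries, and the value was 1.43 with adjusted p = 0.834 and unadjusted p = 0.0100 in edgeR. Without *Postn*-/- 3 the log2 fold change of *Etv5* was 0.05, the lowest with 1 library left out. Over all alternatives the adjusted p of *Etv5* ran from 0.320 to 0.994. Of the 50-base words of *Etv5* transcripts, 24.5% also occurred in the processed pseudogene Gm4798. Only uniquely aligned reads were counted, so reads of those words may be missing from its counts.

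Of the 8 tested members other than *Phlda1*, 0 passed an adjusted p of 0.05 in edgeR with Benjamini-Hochberg adjustment, against 0.0138% of all tested genes (2 of 14533). At an unadjusted p of at most 0.05 it was also 0 of 8, against a background of 6.3%, and genotypes without overlap were found for 0 of 8, against 13.6%. The unadjusted p values ran from 0.249 to 0.578. DESeq2's Wald test and limma's voomWithQualityWeights also called 0 of the 8 at either threshold, and with 2 surrogate variables limma gave *Etv5* a log2 fold change of 0.89 with adjusted p = 0.320 and unadjusted p = 0.0307. The log2 fold change of *Fgfr2* was below 0 and that of the other 7 above 0, and the median was 0.28, beside 50.8% above 0 and a median of 0.00 over all tested genes. The 7 are not separate results, since 6 of them had the same libraries on top.

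For *Fgfr1*, *Dusp6*, *Spry2*, *Spry4*, *Spred1* and *Etv5*, the 3 highest of the 6 libraries were *Postn*-/- 2, *Postn*-/- 3 and *wt* 1. This set of libraries was noticed after the values were seen, it mixes the genotypes, and 4.05% of all tested genes had the same 3 on top. *Postn*-/- 1 was the lowest library for *Fgfr1*, *Dusp6*, *Spry2* and *Spry4*, as it was for 13.7% of all tested genes. *Fgfr2*, *Fgfr3* and *Fgf18* had other orders, and in *Fgfr3* the library *Postn*-/- 1 was the highest and *wt* 1 the lowest.

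**Figure D3:**
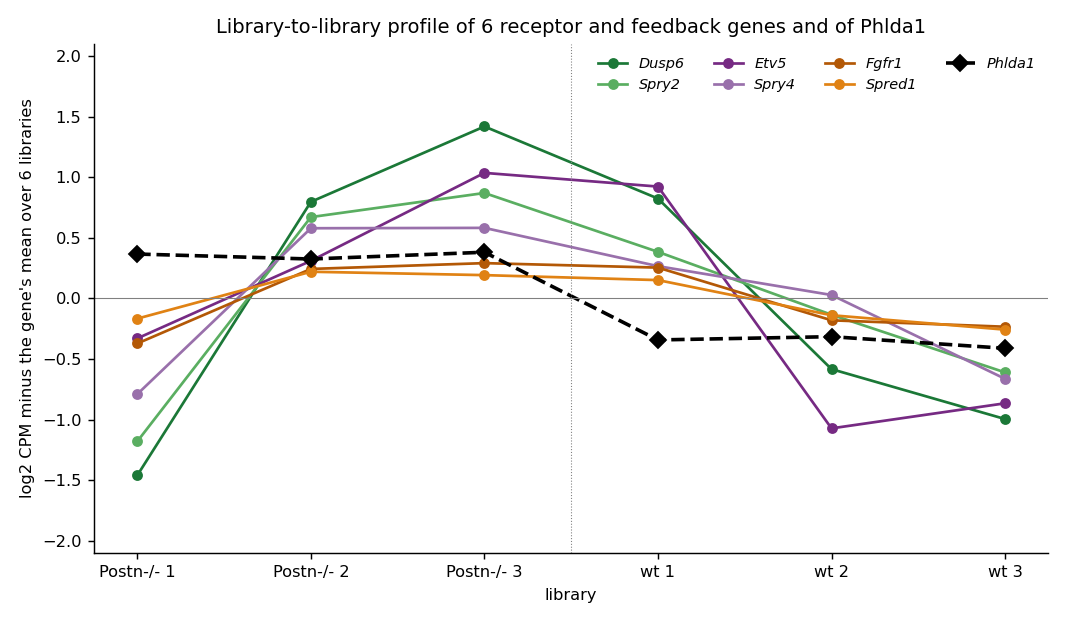
Log2 CPM of 7 genes in each library, as the difference from the mean of that gene over the 6 libraries (libraries on the horizontal axis, dotted line between the genotypes, lines only join the points of 1 gene). *Dusp6* runs from -1.46 in *Postn*-/- 1 to 1.42 in *Postn*-/- 3 and is at 0.82 in *wt* 1, the 5 other coloured genes have the same 3 libraries on top with smaller swings, and *Phlda1* (black) steps from 0.32 to 0.38 in *Postn*-/- down to -0.41 to -0.32 in *wt*.

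Some transcripts of the list of ERK targets had the same 3 libraries on top and others did not. *Egr1*, an immediate early gene that responds to ERK within minutes, had 3.30, 30.4 and 26.0 normalized CPM in the *Postn*-/- libraries against 15.4, 8.01 and 3.50 in the *wt* libraries, with the top 3 of *Dusp6* and *Postn*-/- 1 lowest. *Fos* had 4.50, 24.5 and 26.5 in the *Postn*-/- libraries against 10.03, 12.7 and 4.31 in the *wt* libraries, so that *wt* 2 took the place of *wt* 1 among the 3 highest. *Fosl1*, *Lif* and, below the filter, *Etv4*, *Maff* and *Dusp4* had the same top 3 as *Dusp6*, and *Lif* ran from 0.161 normalized CPM, only 4 reads, in *Postn*-/- 1 to 3.62 in *Postn*-/- 2. *Myc*, *Ier3*, *Ccnd1*, *Epha2*, *Epha4*, *Etv1* and *Errfi1* did not. These genes were picked from the lists of ERK targets after their values were seen.

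The genes whose profile over the 6 libraries was closest to *Dusp6*, by the root mean square difference of log2 CPM centred on each gene's mean, were *Tnfrsf26* (0.35), *Loxl3* (0.39) and *Spry2* (0.40). *Egr1* had rank 6 at 0.41, *Fos* was at 0.55, *Etv5* at 0.57 and *Spry4* at 0.58. Around *Fgfr3* the closest were *Sbf1* (0.05), *Rbm12* (0.06) and *Dtx3* (0.07), all 3 lowest in *wt* 1 and highest in *Postn*-/- 1. Of the genes set beside it, the cartilage proteoglycan *Acan* was at 0.18 from *Fgfr3* (rank 560), *Col2a1* at 0.28 (rank 3809) and *Dusp6* at 1.23 (rank 14470).

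Spread within genotypes set the members apart from each other. As the SD of log2 CPM within genotypes, *Dusp6* was at 1.27, *Etv5* at 0.91, *Spry2* at 0.87 and *Spry4* at 0.66, beside a median of 0.23 over all tested genes and a 95th percentile of 0.66. Of the 1000 tested genes nearest in mean level, 99.6% had a smaller SD than *Dusp6*, 99.4% than *Spry2*, 98.2% than *Etv5* and 92.6% than *Spry4*. The receptors were at 0.56 for *Fgfr2* (97.5%), 0.32 for *Fgfr1* (87.9%) and 0.29 for *Fgfr3* (79.8%), and *Spred1* at 0.21 (56.2%). At the other extreme, *Phlda1* was at 0.040, and 0.4% of its level neighbours had a smaller SD. A gene picked because its genotypes do not overlap tends to have a small spread, so the *Phlda1* value is part of that choice. The larger SDs rest in part on single libraries. As differences from the gene's mean log2 CPM, *Postn*-/- 1 was at -1.46 for *Dusp6* and -1.18 for *Spry2*. The library *wt* 1 was at 0.92 for both *Etv5* and *Fgfr2*. The SDs without these libraries were not computed.

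**Figure D4:**
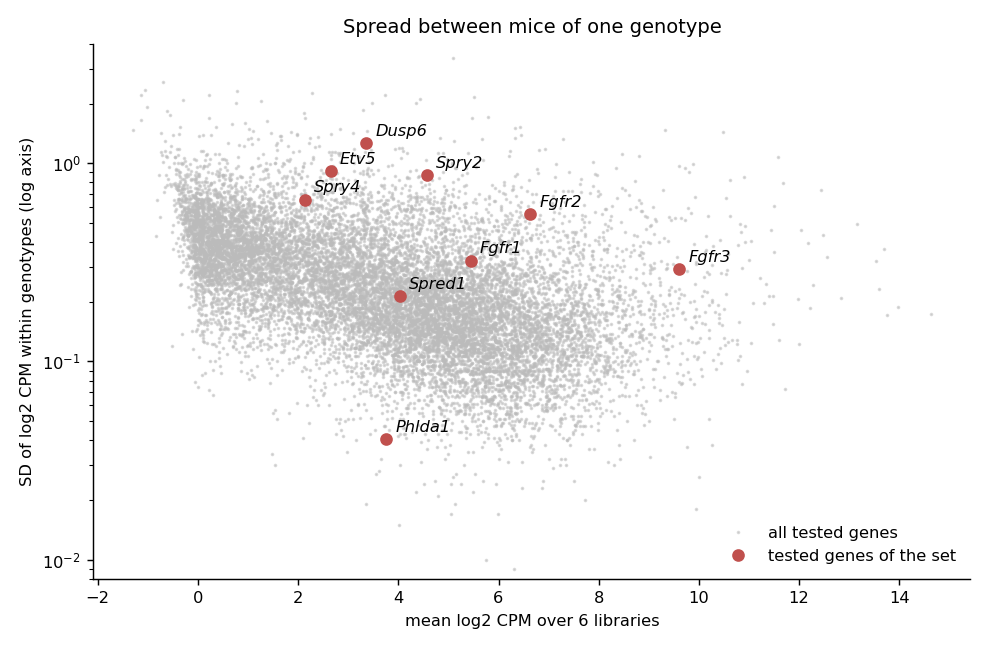
SD of log2 CPM within genotypes (log axis) against mean log2 CPM over 6 libraries, for all tested genes in grey and the 9 tested genes of the set in red. *Dusp6*, *Etv5*, *Spry2* and *Spry4* lie near the upper edge of the cloud (0.66 to 1.27), *Spred1* lies in its middle (0.21) and *Phlda1* at its lower edge (0.040).

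*Phlda1* (chr10:111506286-111508645, plus strand) is known as a target of FGF and ERK signalling in several cell types and as a regulator of cell survival. Its choice fixed the 3 *Postn*-/- libraries as its highest, so its order cannot be set against that of the other feedback genes. Its reads numbered 433, 416 and 369 in the *Postn*-/- libraries and 276, 239 and 211 in the *wt* libraries. In normalized CPM these were 17.4, 16.9 and 17.6 against 10.6, 10.8 and 10.1, so every *Postn*-/- library was above every *wt* library, and the 3 of each genotype were close to each other. The means were 17.3 ± 0.343 and 10.5 ± 0.362 (SD, n = 3 each), a ratio of 1.65.

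The fitted log2 fold change of *Phlda1* was 0.72 (standard error 0.12), given with no p because the gene was chosen on this contrast. It stayed between 0.69 and 0.74 under all 14 alternative settings, among them each library left out in turn. Genotypes that do not overlap keep their direction when 1 library is left out, so this steadiness is part of the choice of the gene. Genotypes without overlap and higher in *Postn*-/- were found for 7.03% of all tested genes. The coefficients of variation, 1.98% in *Postn*-/- and 3.44% in *wt*, were below the 4.96% and 6.43% that counting alone gives at these read numbers. Of the 2205 exon bases of *Phlda1*, 727 (33.0%) lie opposite the antisense gene Gm28592, which had 0 reads in all 6 libraries. Whether counting used strand is not given in the sources used here. Without strand, reads of that stretch are ambiguous and would be left out of the count, which would lower the level per kilobase. Gm28592 is 741 bases long, so most of its own reads would then be left out too. In that case its 0 reads would not show its level.

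The profile of *Phlda1* holds the genotype difference it was chosen for, so a gene close to it tends to share that difference by construction, and the likeness is a description only. The closest profiles were those of *Scn11a* (0.07), *Btg4* (0.08) and *Dock9* (0.08), the first pair at low levels of 0.577 to 1.18 normalized CPM. The collagen gene *Col2a1*, the main chondrocyte collagen, had rank 107 at 0.17, with 15767, 13696 and 18081 normalized CPM against 8271, 11867 and 9567. The proteoglycan *Acan* was farther, at 0.42 (rank 7283), and of the 12 chondrocyte markers 8 had a log2 fold change above 0 and 4 below. The sum of the 12 chondrocyte markers overlapped between the genotypes, at 35532 to 47322 in *Postn*-/- and 30053 to 43343 in *wt*. The sums of the 8 hypertrophic markers also overlapped, at 5105 to 16984 and 4172 to 14060, and in both genotypes library 2 had the highest sum. The 10 proliferation markers summed to 207 to 523 in *Postn*-/- and 432 to 738 in *wt*, which overlapped, and all 10 had a log2 fold change below 0, with a median of -0.63. Without *wt* 1 it was 9 of the 10 with a median of -0.33, and the median was -0.41 without *Postn*-/- 3 and -1.10 without *Postn*-/- 2, in fits added after the values were seen. The part of these marker lists in the *Phlda1* difference was not tested.

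Of its relatives, *Phlda3* also had genotypes without overlap and *Phlda2* did not. *Phlda3*, a p53 target that competes with AKT for membrane lipids, had 36.6, 60.97 and 71.6 normalized CPM in the *Postn*-/- libraries against 25.5, 26.0 and 24.1 in the *wt* libraries. It was higher in every *Postn*-/- library, with a wide spread there and a narrow one in *wt*, and its log2 fold change of 1.16 (standard error 0.23) is given as a description. *Phlda2*, an imprinted gene of placental growth, had 1.53, 2.36 and 2.34 in the *Postn*-/- libraries against 1.31, 3.62 and 1.92 in the *wt* libraries, which overlapped. Per kilobase *Phlda3* (26.2) was more abundant than *Phlda1* (6.31), and *Phlda2* (2.88) less.

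The rest of the pathway was read from 6 lists, with the members left out. These held 87 genes, of which 62 were tested. In edgeR 0 of the 62 passed after Benjamini-Hochberg adjustment, and 3 (4.84%) had an unadjusted p of at most 0.05, against 6.3% of all tested genes. At that threshold DESeq2's Wald test called 5 of the 62, beside 873 of all 14533 tested genes. With limma's voomWithQualityWeights it was 7 of the 62, beside 1337 of all 14533. The 3 were 2 genes higher in *Postn*-/- (background 3.95%) and 1 lower (background 2.35%). Genotypes did not overlap for 7 of the 62, 4 of them higher in *Postn*-/- (background 7.03%) and 3 lower (background 6.57%). Of the 62 log2 fold changes 36 were above 0 and 26 below, with a median of 0.06.

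Among the adaptors and the RAS to ERK core, 20 genes were tested and their median log2 fold change was -0.01. *Shc1*, the adaptor that links receptor tyrosine kinases to GRB2, had 80.8, 67.7 and 73.0 normalized CPM in the *Postn*-/- libraries against 59.5, 54.5 and 52.6 in the *wt* libraries. All *Postn*-/- libraries were above all *wt* libraries, and edgeR gave a log2 fold change of 0.41 (standard error 0.11, adjusted p = 0.717 and unadjusted p = 0.00562). *Mapk3*, which encodes ERK1, had genotypes separated by a small margin, at 46.0 normalized CPM in *Postn*-/- 1 against 45.8 in *wt* 1. Its log2 fold change was 0.28, and it was 0.17 without *Postn*-/- 2 and 0.36 without *Postn*-/- 1. *Nras* (-0.24) and *Grb2* (-0.09) were lower in every *Postn*-/- library, and none of these 3 passed an unadjusted p of 0.05 in edgeR. Under the alternatives *Mapk3* passed it in 6 of 14 and *Nras* in 3, both among them with limma's voomWithQualityWeights.

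Among the other feedback inhibitors, 11 were tested and 1 (9.09%) had an unadjusted p of at most 0.05, against 6.3% of all tested genes. This was *Errfi1*, an inhibitor of EGF receptors, with 17.4, 20.2 and 18.4 normalized CPM in the *Postn*-/- libraries against 14.3, 13.2 and 10.5 in the *wt* libraries. Its genotypes did not overlap, as for 1 of the 11 against 13.6% of all tested genes. The fitted difference of *Errfi1* was 0.56 on the log2 scale (standard error 0.16, adjusted p = 0.717 and unadjusted p = 0.00734, edgeR). *Lztr1*, an adaptor for the degradation of RAS proteins, was the most abundant of the list per length and had a log2 fold change of 0.10. That value was 0.02 without *wt* 1 and 0.16 without *Postn*-/- 2.

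Among the ERK-induced transcripts, 10 were tested, with a median log2 fold change of 0.24, 7 above 0 and 3 below. *Myc*, a growth-promoting transcription factor, had 130, 131 and 110 normalized CPM in the *Postn*-/- libraries against 138, 174 and 151 in the *wt* libraries, lower in every *Postn*-/- library. edgeR put its log2 fold change at -0.32 (standard error 0.13, adjusted p = 0.717 and unadjusted p = 0.0374). *Ier3*, the most abundant of this list per length, was at 0.12, and at -0.033 without *wt* 1. *Ccnd1*, which encodes cyclin D1 and led the signature list, had 39.4, 57.4 and 44.3 in the *Postn*-/- libraries against 100, 49.5 and 48.97 in the *wt* libraries, and its log2 fold change of -0.50 ran from -0.07 without *wt* 1 to -0.67 without *wt* 3. It passed an unadjusted p of 0.05 in 2 of the 14 alternatives, edgeR with no filter and limma with 2 surrogate variables. *Egr1*, *Fos*, *Fosl1* and *Lif*, described above, were at 1.14, 1.03, 0.92 and 0.78, each with overlapping genotypes. Of the 14 alternatives *Fosl1* passed that threshold in 4, *Egr1* and *Fos* in 2 each and *Lif* in 1.

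The 14 tested co-receptors and other receptors had a median log2 fold change of 0.04. Of them 0 passed an unadjusted p of 0.05 when edgeR used all 6 libraries, the filter and no block (6.3% of all tested genes passed), or by DESeq2. Of the 14 alternatives *Fgfrl1* passed that threshold in 5, *Gpc6* in 4, *Sdc3* in 3, and *Hspg2*, *Flrt2* and *Kl* in 1 each, among them fits that left out *wt* 1, *wt* 2 or *Postn*-/- 2. The syndecan *Sdc4*, a heparan sulfate carrier that holds FGFs at the cell surface, was the most abundant of them, at 725 to 956 normalized CPM per kilobase. Its log2 fold change was -0.16, and it was -0.09 without *wt* 2 and -0.23 without *wt* 3. Of the 3 genes called at the unadjusted threshold, *Shc1* and *Errfi1* were also called under all 14 alternative settings and *Myc* under 10 of them.

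**Figure D5:**
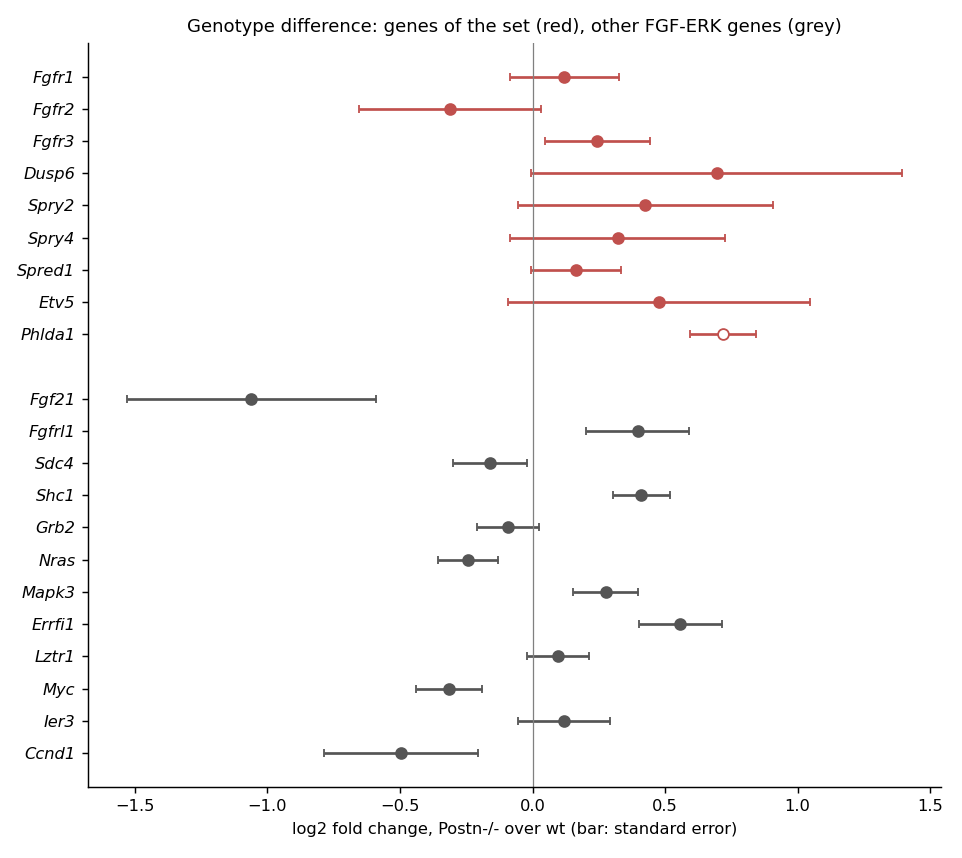
Log2 fold change, *Postn*-/- over *wt*, with its standard error as a bar, for the 9 tested genes of the set (red, *Phlda1* open because it was chosen on this contrast) and 12 other genes of FGF and ERK signalling (grey). *Dusp6* has the widest bar of the red genes (0.69, standard error 0.70), *Phlda1* the narrowest (0.72, standard error 0.12), and *Shc1*, *Errfi1* and *Myc* are the grey genes with an unadjusted p of at most 0.05.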

How the data were processed

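RNA was measured in primary chondrocytes of 3 *Postn*-/- and 3 *wt* mice, and groups and replicate numbers came from the sample labels. Per the study's methods, the authors sequenced single-end reads of SMARTer Ultra Low libraries, aligned them with STAR 2.0.4b to Ensembl release 76 and counted uniquely aligned, unambiguous reads with Subread's featureCounts 1.4.5. The strand setting is not given in the sources used here, and limma was the authors' test. The processing notes list the build mm9, but 99.8% of the matched genes lie in place on GRCm38, which was therefore used. The authors deposited raw counts of 41388 genes for each sample. They also deposited CPM (counts relative to each library's total) and RPKM (CPM divided by exon length in kilobases). The deposited RPKM values were used only for an alternative order of the levels.

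Names and positions came from GENCODE M21 (40340 identifiers matched, 97.5%). The 14533 genes tested were above 1 CPM in at least 2 libraries, without 355 rRNA genes. The genotypes were compared with edgeR 4.0.16 (R 4.3.3), TMM scaling and its quasi-likelihood test, without covariates (common biological coefficient of variation 0.208), with Benjamini-Hochberg adjustment over all tested genes. Intervals of 95% use the fit's own degrees of freedom. Log2 CPM used a prior count of 2. The fit was tested on simulated data. Chi-square per degree of freedom between libraries was 36.5 to 110, so no library was a copy of another. Counting errors and limits cover counting only.

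The members, the gene lists and the rule for named genes were chosen with earlier results of these data known. The rule named the members, *Postn*, *Fgfrl1*, *Phlda3*, the most abundant gene of each pathway list, genes of those lists with an unadjusted p of at most 0.05 or no overlap, and the 3 closest profiles. One gene that the rule names is not reported here. Other named genes were chosen after their values were seen. Alternatives were DESeq2 size factors, upper quartile scaling, other filters, the Wald test of DESeq2 1.42.0, voomWithQualityWeights (limma 3.58.1) without and with 2 surrogate variables (sva 3.50.0), a replicate block and leaving out each library. Promoter windows came from RefSeq.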

Additional observations from a re-analysis of the deposited data

How the results depend on the processing

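No tested member other than *Phlda1*, which was given no p, passed an adjusted p of 0.05 under any of the 14 alternatives, and of 336 values of single genes 334 kept their direction. The 2 that turned were *Fgfr2* (0.22) and *Ier3* (-0.033), both without *wt* 1, and over the libraries left out they ran from -0.57 to 0.22 and from -0.033 to 0.32. The *Phlda1* log2 fold change ran from 0.69 to 0.74, which is part of the choice of that gene. Members other than *Phlda1* with an unadjusted p of at most 0.05 went from 0 to 1 with 2 surrogate variables (*Etv5*), and from 0 to 1 over the fits that left out 1 library (*Spry2* without *Postn*-/- 1, *Etv5* without *wt* 1). Of the 62 other pathway genes tested, 3 passed that threshold, beside 916 of all 14533 tested genes. With no filter it was 10 beside 1797 of 34295, with more pathway genes tested as well. It was 5 beside 873 with DESeq2 and 7 beside 1337 with voomWithQualityWeights. With 2 surrogate variables it was 12 beside 1997, and with the replicate block 6 beside 1188. With 1 library left out it ran from 2 without *Postn*-/- 3, beside 429, to 8 without *Postn*-/- 1, beside 871. Over all genes the count with an adjusted p of at most 0.05 went from 2 to 1 with upper quartile scaling, 9 with no filter, 0 when genes had to exceed 1 CPM in all 6 libraries (fewer genes tested), 10 with DESeq2, 1 with voomWithQualityWeights, 4 with 2 surrogate variables, 1 with the replicate block and 1 to 2 with 1 library left out. At an unadjusted p of at most 0.05 the count over all genes went from 916 to 1797 with no filter (more genes tested) and 1997 with 2 surrogate variables. It was 873 with DESeq2, 1337 with voomWithQualityWeights and 1188 with the replicate block. With 1 library left out it was 429 to 1258, lowest without *Postn*-/- 3. The cause of the other shifts was not tested. The order by level per length kept 8 to 10 of the 10 ranks.

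Same-numbered libraries correlated at 0.08, 0.16 and 0.14 in their deviations from the group means, and the other combinations at -0.13 to 0.01. Each library thus correlated best with its own number. The labels name no pairs, so the main fit used none, and these correlations cannot decide whether the numbers mark pairs. Among the members given a p the replicate block changed no call, and of the receptors and co-receptors it gave *Fgfrl1*, *Gpc6* and *Sdc3* an unadjusted p of at most 0.05. With 3 mice a group, the interval for the *Dusp6* log2 fold change was wide, at -0.92 to 2.31 in the edgeR fit described above (standard error 0.70). That width depended on the fit. Among fits that kept every library, the standard error of *Dusp6* ran from 0.44 in edgeR with no filter to 0.97 with the replicate block. *Fgf18* at 7 to 13 reads was limited by depth. A library left out leaves 2 mice in 1 group, and the spread is then pooled over both.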
